A study of Mus musculus with 24 samples.

Results

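The 31 genes described here are mouse genes with a record of induction by glucocorticoid hormone, together with the gene of the receptor that reads the hormone, Nr3c1. They were taken by symbol, 31 of the 45468 genes in the count tables, and all 31 were among the 17159 genes with enough counts to test. The list was drawn up with results of these data in view, and is treated as chosen by the measured difference between Sox17-deleted and control pups at postnatal day 9 (P9). Values at P9 are therefore given below as a description of the genes chosen, without a test.

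Glucocorticoid hormone enters the cell and binds a receptor held in the cytoplasm by heat shock protein 90 and its partner proteins. The loaded receptor moves to the nucleus, binds DNA as a pair at an inverted repeat, and raises the transcription of genes that slow growth signals, shift fuel use and feed back on the receptor itself. In brain vessels, glucocorticoids are known for tightening the barrier, and synthetic forms are given against brain oedema.

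The libraries came from freshly isolated brain endothelial cells of mice, obtained by enzymatic digestion of the brain, depletion of CD45-positive cells and capture with CD31 beads. In the Sox17iECKO groups (KO below) both Sox17 alleles were floxed and the mice carried Cdh5(PAC)-Cre-ERT2, a tamoxifen-activated recombinase driven by the endothelial Cdh5 promoter. The control groups (wt below) were Sox17flox/flox without the recombinase, so they also carried the floxed alleles. Per the labels, all animals of a stage had the same tamoxifen schedule, and loss of Sox17 and presence of the recombinase cannot be told apart here. Embryos at E15.5 came from dams given 2 injections of 1 mg on days 11.5 and 13.5 after conception. Pups harvested at P5 and P9 each had 100 µg under the skin on postnatal day 1. Adults had 4 injections of 1.5 mg from 6 weeks of age and were harvested 1 week later. Each of the 8 groups had 3 libraries, described by the labels as independent biological replicates, which gives 24 libraries in all. A kit for neural tissue was used for digestion at E15.5 and P5 and a kit for adult brain at P9 and in adults, so kit and age cannot be told apart across those stages. Tamoxifen schedule and age likewise cannot be told apart between embryos, pups and adults. Hormone level, handling and time of day at harvest are not given in the sources used here.

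Total counts per library ran between 12301779 and 19830600, so that 3 counts corresponded to 0.134 to 0.252 CPM. CPM here are read counts scaled to library size with the trimmed-mean factors of edgeR, and log2 differences are KO over wt unless stated. As a check of the labels, all KO libraries had less Sox17 than any wt library of the same stage, with means of 9.13 against 90.5 CPM at E15.5, 16.7 against 277 at P5, 23.4 against 333 at P9 and 52.7 against 297 CPM in adults. The 10 endothelial marker genes summed to between 4180 and 20400 CPM. Pericyte markers summed to between 571 and 5650 CPM, and oligodendrocyte markers to between 150 CPM at E15.5 and 26000 CPM in adults, so none of the fractions was free of other cells. In such bulk samples a change in the share of a cell type and a change of RNA per cell cannot be told apart.

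The promoters come first, searched for the letters the receptor is known to bind. RefSeq windows of the 250 bases before a transcript start (build GRCm38.p6) were used for 26 of the 31 genes, 41 windows in all. The core of the receptor's inverted repeat, ACANNNTGT, which reads the same on both strands, lay in 7 of the 41 windows (17.1%), against 1917 of all 32851 windows (5.84%). These windows belonged to Sgk1, Map3k6, Fam107a, Mt1 and Txnip, 5 of the 26 genes. The Fam107a windows overlap almost wholly and hold the same core, at -118 and -116, so that site counts more than once. Sgk1 also gave more than 1 of the 7 windows. Windows were not merged by gene in either count. The full repeat, AGAACA and its reverse complement with 3 bases between, contains that core and was in 3 of all windows (0.00913%), 1 of them upstream of Sgk1. One window for each of these 5 genes follows, 5′ to 3′ on the gene's strand, with the core in capitals. They are chr10:21993640-21993889 on the plus strand for Sgk1, chr4:133240568-133240817 on the plus strand for Map3k6, chr14:8309778-8310027 on the minus strand for Fam107a, chr8:94178839-94179088 on the plus strand for Mt1 and chr3:96557707-96557956 on the plus strand for Txnip.
Sgk1: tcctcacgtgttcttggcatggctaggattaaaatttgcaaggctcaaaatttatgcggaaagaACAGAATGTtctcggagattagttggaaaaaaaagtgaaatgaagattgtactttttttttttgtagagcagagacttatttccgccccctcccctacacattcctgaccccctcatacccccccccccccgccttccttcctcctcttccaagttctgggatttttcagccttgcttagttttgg
Map3k6: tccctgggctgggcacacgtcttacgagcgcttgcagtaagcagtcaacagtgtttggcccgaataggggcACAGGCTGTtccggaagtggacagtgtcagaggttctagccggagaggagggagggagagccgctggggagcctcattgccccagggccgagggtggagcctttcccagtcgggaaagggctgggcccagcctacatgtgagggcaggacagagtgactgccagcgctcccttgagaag
Fam107a: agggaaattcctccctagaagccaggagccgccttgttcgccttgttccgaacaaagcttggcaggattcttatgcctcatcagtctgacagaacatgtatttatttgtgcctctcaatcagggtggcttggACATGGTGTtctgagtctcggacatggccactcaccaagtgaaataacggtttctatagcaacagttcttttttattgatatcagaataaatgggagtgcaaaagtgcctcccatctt
Mt1: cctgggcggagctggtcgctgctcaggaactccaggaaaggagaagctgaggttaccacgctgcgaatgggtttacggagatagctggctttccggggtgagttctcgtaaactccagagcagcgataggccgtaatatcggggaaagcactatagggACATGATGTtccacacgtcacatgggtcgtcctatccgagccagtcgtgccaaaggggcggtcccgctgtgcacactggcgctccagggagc
Txnip: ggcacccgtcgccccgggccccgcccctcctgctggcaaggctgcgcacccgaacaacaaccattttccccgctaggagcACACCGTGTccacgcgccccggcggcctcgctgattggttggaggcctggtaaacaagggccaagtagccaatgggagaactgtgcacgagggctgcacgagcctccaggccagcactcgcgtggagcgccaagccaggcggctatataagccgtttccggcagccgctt
The core began at position -186 for Sgk1, -179 for Map3k6, -118 for Fam107a, -92 for Mt1 and -170 for Txnip, counted back from the transcript start. For Map3k6, Mt1 and Txnip the window ended at the base before the gene's start in the deposited tables, whereas for Sgk1 and Fam107a it preceded a start inside the gene. The deposited start of Mt1 differs from that in the GENCODE M21 annotation, and those of Map3k6 and Txnip are the same. The string TGCNCNC on either strand, which is looser than the core of the metal response element, was in 58.5% of the members' windows and 44.4% of all windows. These shares are for that string and not for the element itself. The E-box CACGTG, the site of the clock proteins, was in 12.2% against 6.02%, in Bcl6, Fkbp5, Klf15, Per1 and Sgk1. The cAMP response element TGACGTCA was in 2.44% against 1.55%, in Errfi1. These matches are letters in a short window and not measured binding. No window was used for Angptl4, Cebpd, Doc2b, Nr3c1 and Zbtb16.

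At P9, the genes of the list stood far above wt in the KO libraries. The 31 genes together took 6085, 7921 and 5254 CPM in the KO libraries, against 2459, 2364 and 2369 CPM in the wt libraries. For 26 genes every KO library was above every wt library, for Nr3c1 and Rgs2 every KO library was below, and for Cebpb, Pik3r1 and Arrdc3 the libraries overlapped. Among all tested genes at P9, 19% lay wholly above and 21.7% wholly below. The P9 difference helped choose the members, so nothing is read from the comparison of these shares. The median log2 difference of the 31 genes was 1.75, the range -1.36 to 6.93, and the median of all tested genes 0.019. KO library 2 was the highest KO library for 22 of the genes and KO library 3 the lowest for 21.

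**Figure D1:**
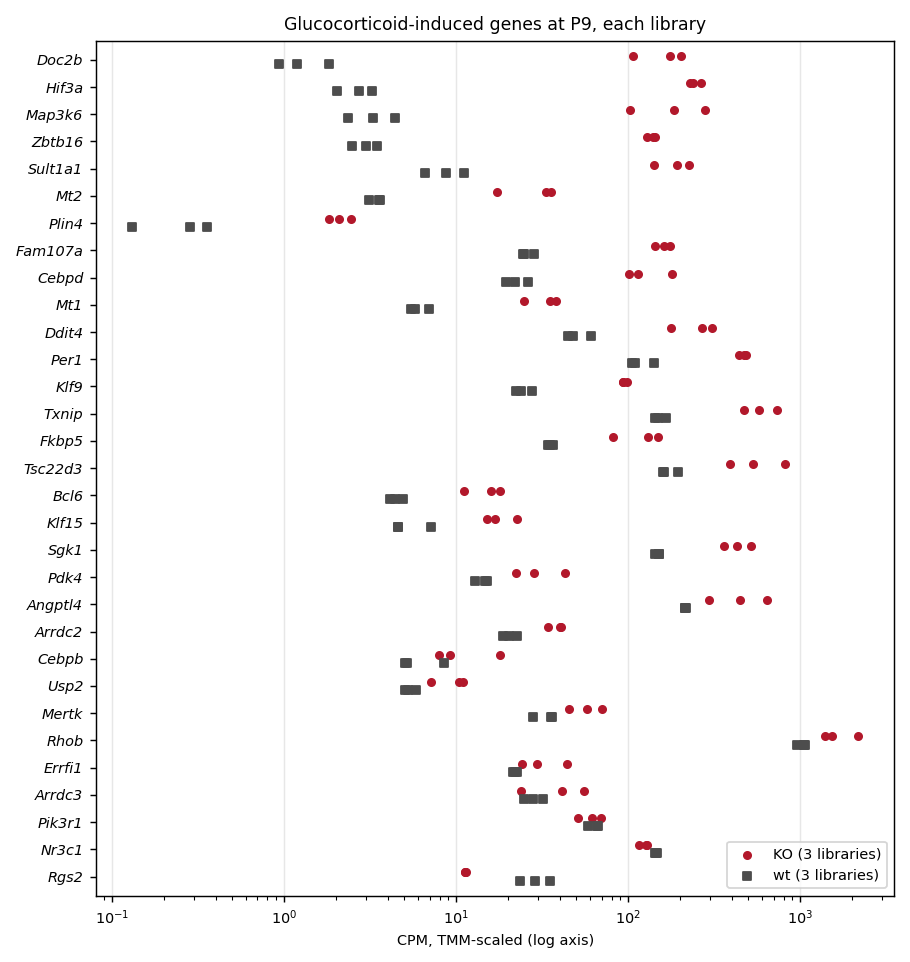
CPM of the 31 genes in each P9 library on a log axis, with KO libraries as circles, wt libraries as squares and genes ordered by their log2 difference. The KO points of Doc2b, Hif3a, Map3k6 and Zbtb16 lie furthest from their wt points, and the KO points of Rgs2 and Nr3c1 lie below the wt points.

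The receptor itself was not higher in KO libraries at P9. Nr3c1 (ENSMUSG00000024431, chr18:39410545-39491301, mm10) had 127, 129 and 116 CPM in KO libraries, against 146, 144 and 147 CPM in wt libraries, a log2 difference of -0.23 ± 0.12 (SE). Fkbp5, Tsc22d3, Sgk1 and Per1, grouped with the receptor here, were all higher. Fkbp5, the co-chaperone that lowers the hormone affinity of the receptor complex, had 130, 150 and 81.6 CPM in KO libraries, against 35.0, 34.3 and 36.4 CPM in wt libraries, which is 3.43-fold. Tsc22d3, which encodes the glucocorticoid-induced leucine zipper GILZ, had 535, 811 and 391 CPM in KO libraries, against 194, 162 and 160 CPM in wt libraries. For both genes the lowest KO library lay well above the highest wt library. Sgk1, a kinase that regulates ion channels and transporters, had 360, 519 and 430 CPM in KO libraries, against 151, 144 and 151 CPM in wt libraries. Per1, a clock component with a hormone-responsive promoter, had 439, 474 and 484 CPM in KO libraries, against 109, 105 and 141 CPM in wt libraries.

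All 7 transcription factors of the list had positive P9 differences, with a median of 1.96. Hif3a, an inhibitory relative of the hypoxia-inducible factors (ENSMUSG00000004328, chr7:17031507-17062427), had 228, 266 and 238 CPM in KO libraries, against 2.03, 3.23 and 2.71 CPM in wt libraries. This is a log2 difference of 6.51 ± 0.30 (SE). Zbtb16, the zinc finger repressor PLZF (ENSMUSG00000066687, chr9:48654311-48835945), had 139, 143 and 129 CPM in KO libraries, against 2.49, 3.45 and 3.0 CPM in wt libraries. Both genes were scarce in each wt library and well expressed in each KO library, with little spread among the KO libraries. Cebpd, a leucine zipper factor of acute responses, had 114, 179 and 101 CPM in KO libraries, against 26.3, 19.6 and 21.9 CPM in wt libraries. The deposited table lists Cebpd as a pseudogene, whereas the GENCODE M21 annotation lists the same ID as protein coding. Klf9, a Krüppel-like factor that answers glucocorticoid and thyroid hormone, had 93.9, 93.9 and 98.8 CPM in KO libraries, against 22.2, 23.8 and 27.6 CPM in wt libraries. The 3 KO libraries agreed closely for Klf9 and lay apart for Cebpd. Klf15, a regulator of amino acid and glucose metabolism, had 22.6, 16.9 and 15.1 CPM in KO libraries, against 4.58, 7.13 and 4.57 CPM in wt libraries. Bcl6, a transcriptional repressor, had 16, 11.1 and 18.0 CPM in KO libraries, against 4.91, 4.42 and 4.14 CPM in wt libraries. Neither gene overlapped between the groups, at 3.36-fold and 3.34-fold. Cebpb had 9.25, 17.9 and 7.94 CPM in KO libraries, against 8.50, 5.21 and 5.07 CPM in wt libraries, so the groups overlapped.

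Among the genes that restrain or relay growth signals, the range was the widest. Map3k6, a stress-activated kinase upstream of the MAP kinases (ENSMUSG00000028862, chr4:133240818-133252929), had 185, 281 and 103 CPM in KO libraries, against 2.35, 3.28 and 4.43 CPM in wt libraries. Ddit4, the mTOR brake REDD1, had 268, 305 and 177 CPM in KO libraries, against 44.9, 47.5 and 61.0 CPM in wt libraries. Rhob, a small GTPase, had 1520, 2170 and 1390 CPM in KO libraries, against 1070, 1050 and 956 CPM in wt libraries. Per length Rhob was the most abundant member, at 2320 ± 420 TPM in KO and 1480 ± 55.0 TPM in wt libraries (mean ± SD, n = 3 each; TPM, the deposited value scaled for depth and gene length). Errfi1, a feedback inhibitor of the EGF receptor, had 29.4, 44.1 and 24.1 CPM in KO libraries, against 22.6, 22.1 and 21.4 CPM in wt libraries. Mertk, a receptor kinase for the uptake of dead cells, had 57.7, 45.3 and 70.5 CPM in KO libraries, against 27.9, 36.1 and 35.6 CPM in wt libraries. The distances were small for both, 1.48-fold and 1.74-fold, with no overlap. Pik3r1, the regulatory subunit of PI3 kinase, was at 61.2, 51.1 and 69.3 CPM in KO libraries, against 65.9, 58.4 and 66.8 CPM in wt libraries, which overlapped throughout. Rgs2, which turns off Gq-coupled receptors, went against the rest, with 11.3, 11.4 and 11.2 CPM in KO libraries, against 35.1, 28.6 and 23.4 CPM in wt libraries. Its log2 difference was -1.36 ± 0.17 (SE).

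The fuel genes all had positive P9 differences. Txnip, the thioredoxin-interacting arrestin that limits glucose uptake, had 577, 735 and 470 CPM in KO libraries, against 150, 144 and 166 CPM in wt libraries. Angptl4, a secreted inhibitor of lipoprotein lipase, had 447, 640 and 295 CPM in KO libraries, against 216, 215 and 214 CPM in wt libraries. Pdk4, the kinase that shuts pyruvate out of the mitochondrial oxidation route, had 28.5, 43.0 and 22.3 CPM in KO libraries, against 14.7, 12.8 and 15.1 CPM in wt libraries. In all 3 genes the groups were apart, and KO library 2 was the highest. Plin4, a lipid droplet coat protein, was scarce, with 2.44, 1.82 and 2.07 CPM in KO libraries, against 0.131, 0.283 and 0.357 CPM in wt libraries. These values rest on 95 counts in KO and 12 in wt libraries together. Of the fuel genes, the arrestin-domain genes lay closest to wt. Arrdc2 had 34.2, 40.1 and 40.8 CPM in KO libraries, against 20.3, 22.5 and 18.6 CPM in wt libraries. Arrdc3 had 41.3, 55.6 and 23.7 CPM in KO libraries, against 28.1, 24.8 and 31.8 CPM in wt libraries, and overlapped.

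The last group holds the largest difference of the list. Doc2b, a calcium sensor of vesicle fusion (ENSMUSG00000020848, chr11:75768966-75796049), had 176, 204 and 106 CPM in KO libraries, against 1.83, 1.19 and 0.928 CPM in wt libraries, with 7298 counts in the KO libraries and 62 in the wt libraries. Sult1a1, a phenol sulfotransferase (ENSMUSG00000030711, chr7:126672865-126676432), had 192, 227 and 141 CPM in KO libraries, against 11.1, 6.62 and 8.71 CPM in wt libraries. Fam107a, an actin-associated protein induced by stress and glucocorticoid, had 161, 176 and 143 CPM in KO libraries, against 28.5, 24.7 and 24.4 CPM in wt libraries. For each of the 3 genes the lowest KO library was at least several times the highest wt library. The metallothioneins Mt1 and Mt2, small metal-binding proteins, lie next to each other on chromosome 8 and are close copies, so reads could be split between them uncertainly. Mt1 had 35.3, 38.1 and 24.8 CPM in KO libraries, against 5.76, 5.49 and 6.93 CPM in wt libraries. Mt2 had 33.5, 35.6 and 17.2 CPM in KO libraries, against 3.60, 3.11 and 3.57 CPM in wt libraries. KO library 3 was the lowest KO library for both. Usp2, a deubiquitinase with a daily rhythm, had 11, 7.17 and 10.4 CPM in KO libraries, against 5.04, 5.83 and 5.28 CPM in wt libraries, a 1.77-fold mean without overlap.

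Other genes were tested at P9 by edgeR's quasi-likelihood test with Benjamini-Hochberg adjustment over all 17159 genes. At an adjusted p of 0.05, 13.5% of all tested genes were called higher and 14.6% lower in KO. Markers of other cell types moved with the contrast. The 10 astrocyte markers summed to between 984 and 1490 CPM in P9 KO libraries, against 624 to 740 CPM in wt libraries, and 7 of the 10 were called higher, while Aqp4 was not, at -0.20. The 9 pericyte markers summed to between 795 and 1940 CPM in KO libraries, against 3000 to 4070 CPM in wt libraries, with 6 of 9 called lower. The 7 fibroblast markers summed to between 198 and 285 CPM in KO libraries, against 337 to 445 CPM in wt libraries, with 6 of 7 called lower and 1 higher. Of 7 smooth muscle markers tested, 4 were called lower and 1 higher, with a median log2 difference of -0.88 and -1.86 for Acta2, smooth muscle actin. The 8 in the list summed to between 640 and 749 CPM in KO libraries, against 565 to 617 CPM in wt libraries. All 10 neuronal markers had differences above 0 (median 0.46), of which 1 was called, and they summed to between 218 and 491 CPM in KO libraries, against 243 to 271 CPM in wt libraries. Microglia and macrophage markers summed to between 49.7 and 52.1 CPM in KO libraries, against 64.3 to 72.9 CPM in wt libraries, with 1 of 10 called in each direction. Red cell markers summed to between 1260 and 1500 CPM in KO libraries, against 1550 to 1770 CPM in wt libraries. Endothelial markers summed to between 16500 and 20400 CPM in KO libraries, against 15400 to 15900 CPM in wt libraries. Of these 10 markers, 3 were called higher and 2 lower, with log2 differences between -0.44 and 0.52. Of these lists, only that of red cells had a gene at 0 in all P9 libraries, the embryonic globin Hbb-bh1. Of 18 immediate early and dissociation genes, 15 were called higher and 1 lower. The 4 with the smallest adjusted p were Btg2, Dusp1, Zfp36 and Egr1, with log2 differences of 2.04, 1.65, 1.47 and 0.99, and Hspa1a and Hspa1b both stood at 1.58. The part of these changes in the values of the 31 genes was not tested.

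The surrounding pathway was read at P9 from lists of other genes. These lists were drawn up with earlier results of these data known, so their P9 counts are a description and not independent evidence. The lists share genes: Hsp90aa1, Dusp1 and Zfp36 also stand in the immediate early list, and Per2 in the clock list. Of 13 tested genes of receptor and hormone handling, which include other receptors, partner proteins, coregulators and hormone-converting enzymes, 2 were higher and 4 lower. The 4 were partners of the cytoplasmic receptor complex. Stip1, the adaptor between heat shock proteins 70 and 90, fell by 0.82 ± 0.14 (SE, log2; adjusted p = 0.00015), and Fkbp4, the co-chaperone that helps the loaded receptor to the nucleus, fell by 0.59 ± 0.11 (adjusted p = 0.00032). Ptges3, the p23 co-chaperone, fell by 0.53 ± 0.12 and Hsp90aa1, an inducible form of heat shock protein 90, fell by 0.50 ± 0.17 (adjusted p = 0.0016 and 0.029). Ncoa1, a receptor coactivator, rose by 0.38 ± 0.11 (adjusted p = 0.013), and Crhr1 was called higher with its level resting on KO library 3 (1.09, 1.21 and 4.84 CPM in KO libraries, against 0.850, 1.19 and 0.928 CPM in wt libraries). Nr3c2, the mineralocorticoid receptor, and Hsd11b1, which regenerates active hormone, were not called, at -0.18 ± 0.30 and 0.58 ± 0.43.

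Of 23 other tested genes known to respond to glucocorticoids, 13 were higher and 3 lower at P9, where 13.5% and 14.6% of all genes were so called. Ctgf, a matricellular growth regulator, had 1220, 2020 and 1260 CPM in KO libraries, against 57.2, 53.5 and 76.8 CPM in wt libraries (log2 4.58 ± 0.22, adjusted p = 1.1e-12). Per2, a second clock repressor, had 101, 82.4 and 88.1 CPM in KO libraries, against 19.6, 21.6 and 23.1 CPM in wt libraries (log2 2.08 ± 0.17, adjusted p = 3.7e-09). Both genes were far apart between the groups. Foxo3 and Sesn1, brakes on growth, rose by 0.84 ± 0.09 and 0.94 ± 0.10 on the log2 scale. The 3 genes that fell were Anxa1, a hormone-induced anti-inflammatory protein, at -0.78 ± 0.24, Cdkn1c, a cell cycle inhibitor, at -0.72 ± 0.14, and Snai2, a zinc finger repressor, at -0.60 ± 0.17. Inflammatory genes that the hormone is known to repress did not move together downwards: of 13 tested, 7 were higher and 2 lower. Ptgs2, the inducible cyclooxygenase, had 102, 141 and 80.6 CPM in KO libraries, against 4.71, 3.74 and 4.00 CPM in wt libraries (log2 4.70 ± 0.26). Cxcl1, a neutrophil chemokine, was 2.24 ± 0.40 higher, and Nos2, the inducible nitric oxide synthase, fell by 0.57 ± 0.12. Mmp9, a matrix protease, had 3.53, 8.75 and 7.25 CPM in KO libraries, against 28.7, 16.7 and 23.4 CPM in wt libraries (log2 -1.78 ± 0.36).

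Metabolic targets of PPAR and FoxO factors, which share Pdk4, Angptl4 and Plin4 with the hormone response, had 4 higher and none lower of 13 tested. These were Insr, the insulin receptor, at 0.82 ± 0.13, Irs2 at 0.71 ± 0.24, Plin2 at 0.60 ± 0.16 and Fbxo32 at 0.55 ± 0.16. Cpt1a, an enzyme of fat oxidation, was not called, at -0.04 ± 0.12. Of 6 metal-response genes, 1 was higher and 1 lower, the zinc exporter Slc30a1 at 0.47 ± 0.10 and Slc30a10 at -0.63 ± 0.18. Mtf1, the metal sensor that drives metallothionein genes, was not called, at 0.15 ± 0.13. Among 13 clock genes, 8 were higher and 1 lower at P9. Npas2 and Arntl, of the activating arm, rose by 2.36 ± 0.29 and 0.80 ± 0.11, Tef, an output factor, rose by 0.67 ± 0.11, and Nr1d2 of the repressing arm fell by 0.43 ± 0.14. Dbp, an output gene that swings widely over the day, was not called, at -0.34 ± 0.20.

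Away from P9, the members gave few calls, and at those stages the tests do not use the P9 difference. At E15.5, edgeR called none of the 31, against 0.42% of all tested genes called higher and 0.128% lower. Unadjusted p was under 0.05 for 6 of them, DESeq2 called 1 (and 148 of all genes) and limma-trend 0. The share of all genes at that unadjusted cut was not counted, so nothing is read from such counts here and below. The 31 log2 differences split into 14 above and 17 below 0, with a median of -0.00338, against 0.0056 over all tested genes. Every KO library was above every wt library for Sgk1, Mt1 and Mt2 and below for Per1, Pdk4 and Angptl4, that is for 3 and 3 of 31, where 4.99% and 3.36% of all genes were so placed. Pdk4 had 2.38, 2.94 and 1.70 CPM in KO libraries, against 3.30, 5.08 and 4.37 CPM in wt libraries (log2 -0.86 ± 0.24, adjusted p = 0.16). Mt2 had 3.21, 2.27 and 2.12 CPM in KO libraries, against 1.32, 1.75 and 0.590 CPM in wt libraries (log2 1.05 ± 0.41, adjusted p = 0.69). The groups did not overlap for either gene, but the tests did not reach the threshold. Red cell markers summed to between 658 and 1140 CPM in E15.5 KO libraries, against 2740 to 3640 CPM in wt libraries, and their part in these values was not tested.

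At P5, in pups on the same tamoxifen schedule as those of P9, Sult1a1 was the 1 member called. Sult1a1 had 22.1, 13.3 and 18.8 CPM in KO libraries, against 8.24, 10.3 and 10.4 CPM in wt libraries (log2 0.91 ± 0.21, adjusted p = 0.043 by edgeR's quasi-likelihood test). The call was lost without KO library 1 (adjusted p = 0.34) or 3 (0.16), without wt library 1 (0.27), 2 (0.089) or 3 (0.14), and with the replicate number as a block (0.055). Among all tested genes 0.396% were called higher and 0.134% lower. Unadjusted p was under 0.05 for 7 members. Hif3a came next, with 16.4, 6.59 and 17.2 CPM in KO libraries, against 5.26, 6.29 and 7.09 CPM in wt libraries (log2 1.11 ± 0.26, adjusted p = 0.056). KO library 2 lay within the wt range for Hif3a, and the same library was the lowest for Sult1a1. Zbtb16 showed the same order, with 8.57, 3.05 and 7.32 CPM in KO libraries, against 4.43, 3.69 and 2.81 CPM in wt libraries (log2 0.80 ± 0.31, adjusted p = 0.45). The 31 differences split into 26 above and 5 below 0, with a median of 0.22, against -0.0025 over all tested genes. For 8 members every KO library was above every wt library and for 2 below, where 7.8% and 7.23% of all genes were so placed. Fibroblast markers summed to between 476 and 511 CPM in P5 KO libraries, against 575 to 632 CPM in wt libraries, and their part was not tested. Usp2 and Mertk were the 2 members below. Usp2 had 4.65, 4.09 and 5.52 CPM in KO libraries, against 8.38, 6.35 and 6.39 CPM in wt libraries (log2 -0.56 ± 0.19, adjusted p = 0.32).

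In adults, none of the 31 was called by edgeR, against 0.0291% of all tested genes called higher and 0.0583% lower. Unadjusted p was under 0.05 for 1, Sgk1, and neither DESeq2 nor limma-trend called any. The differences lay between -0.17 and 0.49 with a median of 0.05, against 0.0075 over all tested genes. The KO libraries stood wholly above wt for 2 members and wholly below for none, where 5.09% and 5.79% of all genes were so placed. These 2 were Sgk1 and Hif3a. Hif3a had 9, 10.1 and 8.94 CPM in adult KO libraries, against 8.81, 6.09 and 5.06 CPM in adult wt libraries (log2 0.49 ± 0.27, adjusted p = 1.0). Other genes with large P9 differences were close together in adults. Doc2b had 3.98, 2.55 and 1.88 CPM in adult KO libraries, against 2.43, 3.36 and 2.5 CPM in adult wt libraries. Zbtb16 had 9.70, 8.31 and 10.7 CPM in adult KO libraries, against 10.9, 8.49 and 10.1 CPM in adult wt libraries. Map3k6 had 8.20, 13.5 and 14.1 CPM in adult KO libraries, against 14.2, 10.7 and 9.09 CPM in adult wt libraries. The adult groups overlapped for all 3. Red cell markers summed to between 918 and 1050 CPM in adult KO libraries, against 1280 to 1490 CPM in wt libraries. With 3 libraries a group, the SE of the adult log2 differences was between 0.09 and 0.35, and differences of that size could not be called.

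Sgk1 was the only member whose KO libraries lay above every wt library at each of the 4 stages. At E15.5 it had 145, 128 and 121 CPM in KO libraries, against 90.4, 114 and 116 CPM in wt libraries. At P5 it had 343, 332 and 360 CPM in KO libraries, against 255, 290 and 318 CPM in wt libraries, and in adults 164, 243 and 199 CPM in KO libraries, against 145, 162 and 158 CPM in wt libraries. Averaged over E15.5, P5 and adult, Sgk1 was the 1 member called, at 0.31 ± 0.08 (SE, log2; adjusted p = 0.049), where 0.828% of all tested genes were higher and 0.291% lower. The call is at the edge of the threshold. It was lost with the scaling of DESeq2 (adjusted p = 0.064), with the replicate number as a block within each stage (0.056), and without any 1 of 13 of the 18 libraries. Those were adult KO libraries 2 (0.14) and 3 (0.079), adult wt libraries 1 (0.11), 2 (0.073) and 3 (0.085), E15.5 KO libraries 1 (0.11) and 2 (0.078), E15.5 wt library 1 (0.13), P5 KO libraries 1 (0.089), 2 (0.07) and 3 (0.1), and P5 wt libraries 1 (0.13) and 2 (0.072). The log2 difference stayed between 0.26 and 0.36 in these fits. No member passed the test that the KO effect differs among E15.5, P5 and adult, where 0.128% of all genes did. Unadjusted p was under 0.05 for 8 of the 31 in that test, lowest for Pdk4 (0.0024), and DESeq2 and limma-trend called none. The P9 effect was not tested against the other stages, because it helped choose the genes.

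**Figure D2:**
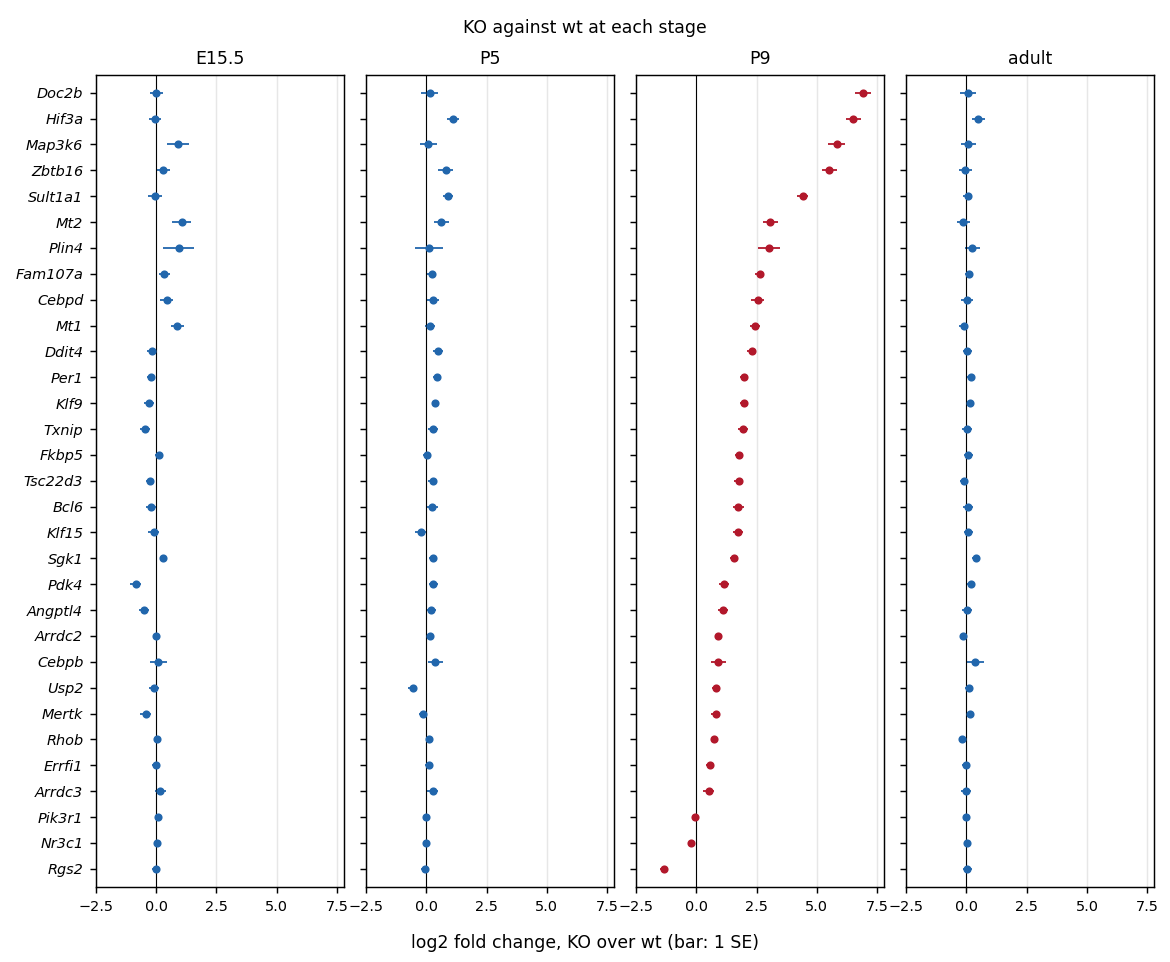
Log2 difference between KO and wt of the 31 genes at E15.5, P5, P9 and adult, with bars of 1 SE. At E15.5, P5 and adult the points lie between -0.86 and 1.11, whereas at P9 they reach 6.93 for Doc2b.

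Other genes of the pathway gave few calls at these stages as well. At E15.5, Hmox1 (1.22, on the log2 scale) was among those higher. At P5, Ptgs2 (2.01), Ccl5 (4.85, from 129 counts in KO and 4 in wt libraries) and Cdkn1a (1.20) were higher and Cdkn1c (-0.78) lower. In adults, Ptgs2 (1.33) alone was called. None of the 13 clock genes, the 18 immediate early genes and the 13 genes of receptor and hormone handling was called at any of these 3 stages.

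In wt mice the same genes differed widely between stages, which could be tested apart from P9. The tamoxifen schedule differed among E15.5, P5 and adult, and the digestion kit between adults and the younger stages. Neither can be told apart from age in these comparisons. Between E15.5 and P5, 17 of the 31 were higher and 6 lower at P5 (median log2 difference 1.02, against 0.095 for all genes), where 36.2% of all tested genes were higher and 30.4% lower. Between P5 and adult, 17 were higher and 5 lower in adults (median 0.55, against 0.011), where 31.2% and 30.8% of all genes were so called. Over the whole span, 22 were higher and 5 lower in adults than at E15.5 (median 1.45, against 0.0021), where 35.2% and 34.3% of all genes were so called. Cell types moved strongly over the same span. Choroid plexus and ependyma markers summed to between 171 and 683 CPM in E15.5 wt libraries and 1670 and 3010 CPM at P5. In adult wt libraries these markers summed to between 8320 and 9340 CPM. In wt libraries astrocyte markers summed to between 247 and 313 CPM at E15.5, 505 and 676 CPM at P5, and 1970 and 3000 CPM in adults. Endothelial markers summed to between 4180 and 4940 CPM at E15.5, 14500 and 16000 CPM at P5, and 10600 and 11400 CPM in adults. Oligodendrocyte and precursor markers summed to between 162 and 218 CPM at E15.5, 434 and 703 CPM at P5, and 21400 and 26000 CPM in adults. Pericyte markers summed to between 697 and 2120 CPM at E15.5, 4330 and 5650 CPM at P5, and 571 and 700 CPM in adults, and neuronal markers to between 1640 and 1990, 236 and 385, and 416 and 572 CPM at these stages. Of the 18 immediate early and dissociation genes, 15 were higher and 1 lower at P5 than at E15.5 (median log2 2.22), and 3 were higher and 15 lower in adults than at P5 (median -2.04). The part of such shifts in the values below was not tested.

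The receptor gene rose between E15.5 and P5. Nr3c1 had 22.5, 33.5 and 21.7 CPM at E15.5, 153, 200 and 154 CPM at P5, 146, 144 and 147 CPM at P9, and 166, 155 and 153 CPM in adults. It was 2.70 ± 0.13 (SE, log2) higher at P5 than at E15.5 (adjusted p = 1.3e-13), and adult and P5 libraries were not called apart (-0.09 ± 0.12, adjusted p = 0.51). Its feedback partner went the other way. Fkbp5 had 72.1, 63.5 and 70.7 CPM at E15.5, 29.2, 38.2 and 38.9 CPM at P5, 35.0, 34.3 and 36.4 CPM at P9, and 7.75, 10.6 and 7.35 CPM in adults. The fall between E15.5 and adult was -3.0 ± 0.18 (adjusted p = 1e-12), and each step tested was called. Tsc22d3 rose by 1.44 ± 0.19 between E15.5 and P5 (adjusted p = 3.9e-07), with 0.01 ± 0.18 between P5 and adult. Sgk1 was 1.43 ± 0.14 higher at P5 than at E15.5 and 0.89 ± 0.14 lower in adults than at P5. Per1 was called in none of the 3 comparisons, with differences of -0.11, 0.09 and -0.02.

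The 4 largest rises between E15.5 and adult were those of Mt1, Mt2, Fam107a and Plin4. Mt1 had 1.10, 2.18 and 1.59 CPM at E15.5, 9.21, 6.41 and 10.7 CPM at P5, 5.76, 5.49 and 6.93 CPM at P9, and 90.1, 117 and 131 CPM in adults. It was 6.09 ± 0.26 higher in adults than at E15.5 (log2, adjusted p = 1.7e-15), and Mt2 was 5.75 ± 0.37 higher. Fam107a had 4.91, 7.25 and 4.37 CPM at E15.5, 22.3, 26.3 and 24.3 CPM at P5, 28.5, 24.7 and 24.4 CPM at P9, and 165, 242 and 331 CPM in adults (adult over E15.5, log2 5.48 ± 0.22). Among wt libraries, those of adults stood well above every younger one for both genes. Klf9 rose at both steps, by 2.57 ± 0.17 between E15.5 and P5 and by 2.30 ± 0.15 between P5 and adult. Mertk rose by 2.68 ± 0.20 and 1.91 ± 0.18 over the same steps, and Usp2 by 1.02 ± 0.19 and 2.62 ± 0.18. Klf15 rose mainly late, by 2.72 ± 0.22 between P5 and adult, and between E15.5 and P5 its difference was 0.46 ± 0.23 (adjusted p = 0.082). Plin4, at 0.147, 0.181 and 0.0590 CPM at E15.5, reached 5.47, 4.86 and 4.79 CPM in adults.

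A smaller set fell. Hif3a had 26.2, 40.7 and 26.6 CPM at E15.5, 5.26, 6.29 and 7.09 CPM at P5, 2.03, 3.23 and 2.71 CPM at P9, and 8.81, 6.09 and 5.06 CPM in adults. It was 2.32 ± 0.26 lower at P5 than at E15.5 (log2, adjusted p = 4.7e-08). Doc2b had 15.2, 8.10 and 9.20 CPM at E15.5, and its difference between P5 and E15.5 was -2.5 ± 0.31 (adjusted p = 2.3e-07). Both genes had their highest wt mean at E15.5. Angptl4 peaked after birth, at 56.6, 68.4 and 49.7 CPM at E15.5, 202, 217 and 201 CPM at P5, 216, 215 and 214 CPM at P9, and 25.5, 28.3 and 30.0 CPM in adults. Both steps were called, at 1.83 ± 0.21 for P5 over E15.5 and -2.89 ± 0.22 for adult over P5. Rgs2 was 1.89 ± 0.17 lower in adults than at E15.5. Its smaller step between E15.5 and P5 (-0.48 ± 0.16, adjusted p = 0.012) was lost without E15.5 wt library 3 (0.07) or P5 wt library 2 (0.062). Between P5 and adult, the call for Cebpb (-1.03 ± 0.34, adjusted p = 0.012) was lost without adult wt library 1 (0.052) or 2 (0.062). The call for Errfi1 (0.44 ± 0.17, adjusted p = 0.026) was lost without adult wt library 2 (0.074) or 3 (0.05), or P5 wt library 1 (0.065) or 2 (0.058).

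**Figure D3:**
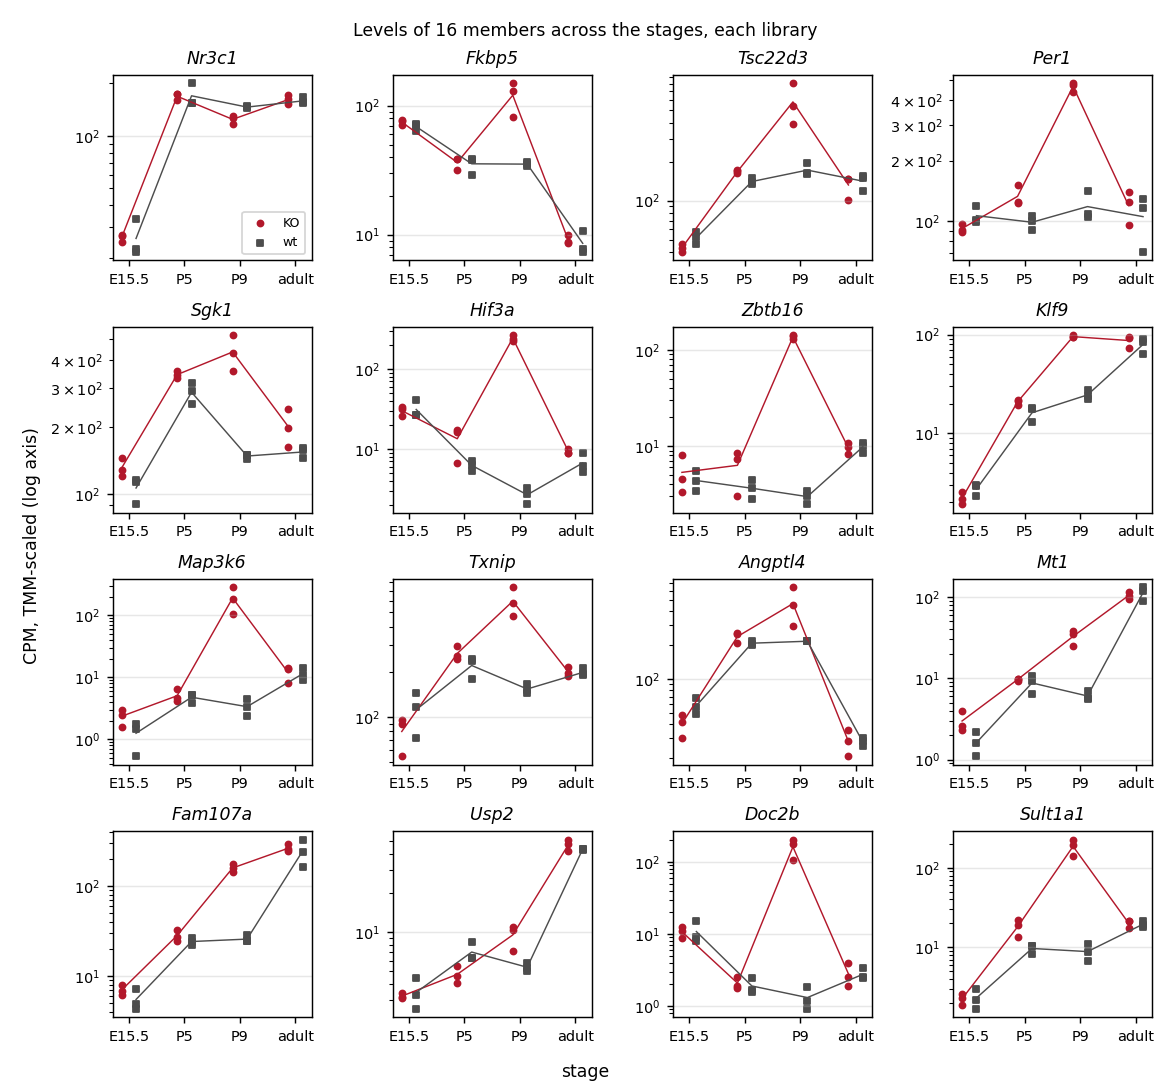
CPM of 16 of the 31 genes in KO (circles) and wt (squares) libraries across E15.5, P5, P9 and adult, each panel on its own log axis, with lines through the group means. At P9 the KO libraries lie above wt in 15 of the panels and below in that of Nr3c1.

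Each gene's level in the P9 KO libraries can be set beside the adult wt level, which was the highest wt level for 17 of the 31 genes, and beside its own highest wt stage. The P9 KO values chose the genes, so this is a description. The same counts were not made over all tested genes, so nothing particular to the list is read from them. All 3 P9 KO libraries lay above all 3 adult wt libraries for 18 genes and below them for 11, with overlap for Errfi1 and Fam107a. P9 KO was the highest of the 8 groups for 17 genes, and for 14 of these every P9 KO library was above each of the other 21 libraries. The 14 were Fkbp5, Tsc22d3, Per1, Cebpd, Zbtb16, Hif3a, Ddit4, Map3k6, Rhob, Pdk4, Angptl4, Txnip, Sult1a1 and Doc2b. Against adult wt the distance was largest for Doc2b, with a mean of 162 CPM in P9 KO and 2.76 CPM in adult wt libraries, which is 58.7-fold. Hif3a was 36.6-fold, Map3k6 16.8-fold, Angptl4 16.5-fold, Fkbp5 14.1-fold and Zbtb16 13.9-fold by the same measure. The order differs against each gene's highest wt stage, since Doc2b, Hif3a and Fkbp5 were highest in wt at E15.5 and Angptl4 at P9. By that measure Map3k6 was 16.8-fold, Doc2b 15-fold, Zbtb16 13.9-fold, Hif3a 7.82-fold, Angptl4 2.14-fold and Fkbp5 1.76-fold. All 3 P9 KO libraries lay above those of the highest wt stage for 16 genes and below them for 12, with overlap for 3. Of the 11 genes that stayed below the adult level, 10 were also called higher in adult than in P5 wt libraries, and Nr3c1 was the other. That call was made for 17 of all 31 members and 31.2% of all tested genes. The 11 were picked by a high adult level, which favours such a call, so nothing is read from the count. Usp2 had a mean of 9.54 CPM in P9 KO and 43.3 CPM in adult wt libraries (0.22-fold), and Mt1 had 32.7 CPM in P9 KO and 113 CPM in adult wt libraries (0.289-fold). Arrdc3 stood at 0.341, Plin4 at 0.419, Mt2 at 0.438 and Mertk at 0.445 of the adult wt mean. The P9 KO libraries of Klf9, at 1.20 of the adult wt mean, lay just above the adult wt libraries.

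**Figure D4:**
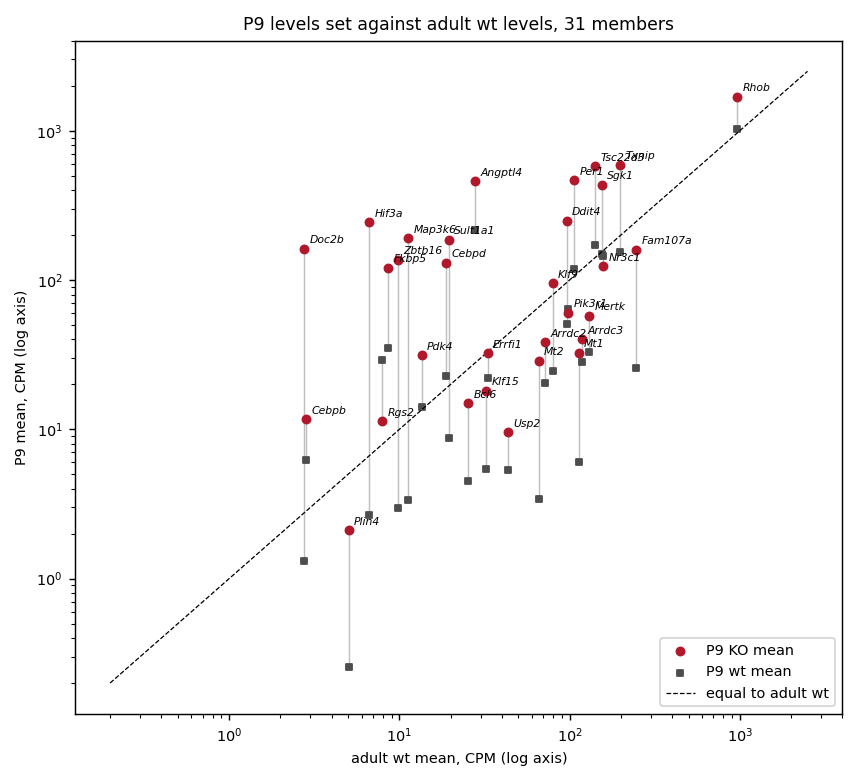
Mean CPM of each gene in P9 KO libraries (circles) and P9 wt libraries (squares) against its mean in adult wt libraries, on log axes, with the line of equality. Doc2b, Hif3a, Map3k6 and Angptl4 lie far on the P9 KO side, and Usp2, Mt1 and Arrdc3 on the adult wt side.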

How the data were processed

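Poly-A RNA was sequenced strand-specifically on an Ion Proton, per the labels' protocols, and the submitters' processing notes name Trim Galore 0.4.1, STAR 2.5.3a, SAMtools 1.5 and the build mm10. The program that counted reads per gene and its annotation are not given in the sources used here. The deposited tables hold counts per gene on the transcript's strand, with the authors' FPKM and TPM beside them. The counts were tested here, the TPM were used for levels per length, and the FPKM were not used. Gene starts in the tables count from 0, and positions here count from 1.

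Groups followed the genotype and stage labels. A gene entered the tests if 1 of the 8 groups or more averaged 10 counts or above, which left 17159 of 45468. edgeR 4.0.16 (R 4.3.3) fitted 8 group means to all 24 libraries, with TMM scaling (factors 0.861 to 1.14), quasi-likelihood tests and Benjamini-Hochberg adjustment, and a gene was called at an adjusted p under 0.05. SE is the log2 difference over the square root of F. The fit was tested on simulated counts. DESeq2 1.42.0 and limma 3.58.1 were alternatives. Values per library at P9 are given for the receptor, the members with large P9 differences and those called in any comparison; from each other list the 4 genes with the smallest adjusted p were named. Other named list genes (such as Nr3c2, Hsd11b1, Crhr1, Anxa1, Mtf1 and Dbp) were picked after their values were seen. Results of some list genes at E15.5 and P9 are not reported here. Members and lists were chosen with earlier results of these data known. p-values rest on the spread between the 3 libraries of a group, estimated jointly over all 8 groups, those of P9 included. Promoter windows came from RefSeq, 250 bases before each start.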

Additional observations from a re-analysis of the deposited data

How the results depend on the processing

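The median P9 difference of the 31 genes (1.75) stayed between 1.70 and 1.93 under every alternative run, and Sox17 was called lower in KO at 4 of 4 stages in each. The wt comparisons of the members kept 20 to 28 calls throughout, and no value reversed. The few KO calls outside P9 depended on the settings. With the DESeq2 test, the members called were 1 at E15.5, 2 at P5 and 2 for the average over E15.5, P5 and adult. Of all genes it called 148, 162 and 297. Without a filter on low counts the members called were 6 at E15.5 (3 higher and 3 lower) and 5 at P5. They were 3 for the average and 6 for the difference among stages. Of all genes, 212, 322, 354 and 197 were called in that fit. The number of genes it tested is not given here, so nothing is read from these counts. With limma-trend there were 0 at P5, and with DESeq2 size factors 0 for the average. The replicate block left 0 at P5, and the replicate block within stage, chosen after seeing the data, left 0 at P5 and 0 for the average. Leaving out 1 library gave 0 to 2 at P5 and 0 to 2 for the average. Replicate numbers were not taken as pairs, because at no stage did all 3 same-numbered pairs deviate together with a correlation over 0.1. These correlations lay between -0.118 at P9 and 0.588 at E15.5, where numbers 2 (0.445) and 3 (0.588) were over that limit and number 1 (0.0972) was not, and 7 of 12 numbers correlated best with their own. Calls among all genes ranged from 4 to 69 in adults, 16 to 212 at E15.5 and 36 to 322 at P5. They ranged from 139 to 354 for the average and from 11 to 197 for the difference among stages. Each was highest without the filter on low counts, and the 16 at E15.5 came from a fit of the compared libraries alone. The cause of these changes was not tested.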
